A study of Populus trichocarpa with 15 samples.

Results

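The ends of plant chromosomes carry telomeres, short repeats capped by proteins, and just inside them lies the subtelomeric DNA. In many plants the arms far from the centromere are rich in genes and the parts around the centromere are rich in transposable elements. Open chromatin is DNA that is not tightly wrapped around nucleosomes, and in leaves it is found mostly at promoters and other regulatory elements of genes in use. ATAC-seq maps it with a transposase that inserts sequencing adapters into accessible DNA, and a peak is a place where a caller found more insertions than its background model allows.

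The regions described here are 5907 open regions whose midpoint lay within 1 Mb of either end of an assembled chromosome of Populus trichocarpa, the black cottonwood. They were taken from 55198 merged regions on the 19 assembled chromosomes, and the remaining 49291 served as the comparison. A further 137 regions lay on other sequences, which gives 55335 in all. A merged region joins all overlapping or touching peaks of 14 peak lists, and a library called a region if its list had a peak that touched the region at all. The largest peak end over these lists was taken as the length of each chromosome, so the high-coordinate end is the outermost peak and not a telomere. The low-coordinate end is position 0. Chromosome lengths on this measure ran between 12.98 and 50.70 Mb. The 38 end zones together covered 38 Mb, which is 9.71% of the chromosomal length, and they held 10.7% of the chromosomal regions.

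The libraries were made from frozen leaves of wild trees in Oregon and differ only in tree and branch, with no treatment. Of the 14 libraries, 5 came from tree 13 (branches 13.1 to 13.5) and 5 from tree 14 (branches 14.1 to 14.5), which are the 2 sides of a single split tree. The 4 libraries of tree 4 (branches 4.2 to 4.5) came from another individual. Each tree number is therefore a single stem, and tree 4 is a single individual. The lists held between 12801 and 39694 peaks. Read depth is not given, and absence from a list means only that no peak passed the caller's threshold there. Leaves hold many cell types, and a region open in fewer cells cannot be told apart from a region less open in each cell. The lists name no genes, so the leaf label could not be checked against marker genes, and no sequence or gene annotation is given because the gene table at hand was not of the build of the lists.

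Open regions were somewhat denser near the ends than in the rest of the chromosomes. The end zones held 155 regions per Mb, against 139.6 per Mb in the rest, and regions covered 4.62% of the end zones, against 4.18% of the rest. The excess was uneven. Of the 38 ends, 27 held more regions per Mb than the rest of their own chromosome and 11 held fewer. Both ends lay above the rest on 10 chromosomes, and both lay below it on chromosomes 9 and 14. These counts are of merged regions, and peaks of single libraries did not always go the same way. On chromosomes 3 and 18 regions were 1.03 and 1.02 times as dense over both ends as in the rest, but peaks per Mb were lower near the ends in all 14 libraries. The high end of chromosome 4 lay above the rest by regions and below it by peaks in 11 of 14 libraries, and the high end of chromosome 1 did so in 9 of 14.

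The densest end was the low end of chromosome 2, with 257 regions in 1 Mb, against 168.9 per Mb in the rest of that chromosome. Next came the high end of chromosome 5, with 240 regions against 156.8 per Mb in the rest, and the high end of chromosome 13, with 232 regions against 114.7 per Mb in the rest. All 14 libraries had more peaks per Mb in each of these zones than in the rest of the same chromosome. Chromosome 13 had the largest contrast of any chromosome, with 214 regions per Mb over both its ends, against 114.7 per Mb between them. The 9 ends with 200 or more regions held 2010 members, or 34.0% of all members.

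The poorest end was the high end of chromosome 8, with 27 regions in 1 Mb, against 176.3 per Mb in the rest of that chromosome. The high end of chromosome 14 held 42 regions, against 168.5 per Mb in the rest. At the low end of chromosome 10 there were 46 regions, against 171.7 per Mb in the rest. These 3 zones therefore held 0.153, 0.249 and 0.268 times the density of the rest of their chromosomes. The low end of chromosome 9 was close to them, with 58 regions against 203.8 per Mb, which is the densest interior of any chromosome. Another 4 ends held between 57 and 103 regions, and they were the low end of chromosome 19 (57 against 87.3 per Mb in the rest), the low end of chromosome 12 (94 against 122.7), the low end of chromosome 3 (96 against 135.0) and the high end of chromosome 18 (103 against 125.7). The remaining 3 lay closer to the rest of their chromosome, namely the low end of chromosome 14 (151 against 168.5), the high end of chromosome 6 (153 against 157.7) and the high end of chromosome 9 (192 against 203.8).

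**Figure D1:**
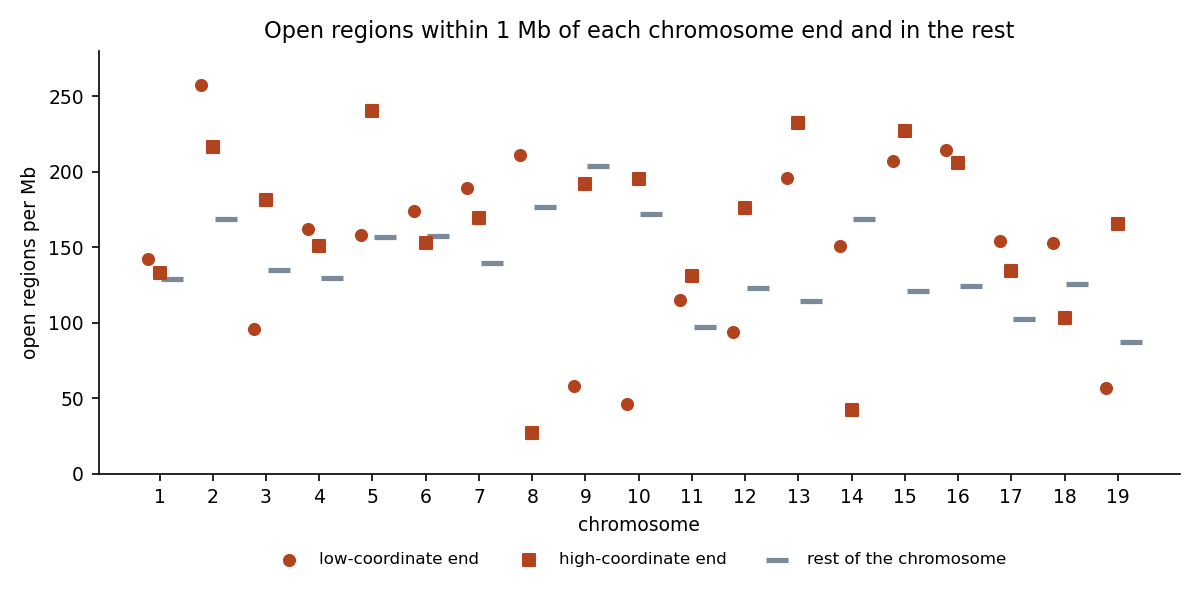
Open regions per Mb (vertical axis) in the terminal 1 Mb at the low-coordinate end (circles) and high-coordinate end (squares) of each chromosome (horizontal axis), with the rest of that chromosome as a bar. Chromosomes 2, 13, 15 and 16 have both ends well above their bar, whereas the high ends of chromosomes 8 and 14 and the low ends of chromosomes 9, 10 and 19 hold 58 regions or fewer.

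The poorest ends were poor and the richest ends rich in every library. In all, 10 ends had fewer peaks per Mb than the rest of the chromosome in all 14 libraries, and 19 ends had more in all 14. At the high end of chromosome 8 the tree 13 libraries had 16, 14, 6, 6 and 6 peaks, the tree 14 libraries 12, 11, 8, 9 and 4, and the tree 4 libraries 3, 4, 3 and 5. All of tree 4 lay at or below 5 peaks there, and only 14.5 of the other libraries was that low. At the high end of chromosome 13 the counts were 142, 172, 143, 151 and 74 in tree 13, 172, 156, 194, 169 and 115 in tree 14, and 119, 105, 162 and 157 in tree 4. The 3 trees overlap at that end, and its lowest count, in 13.5, belongs to the library with the shortest list.

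**Figure D2:**
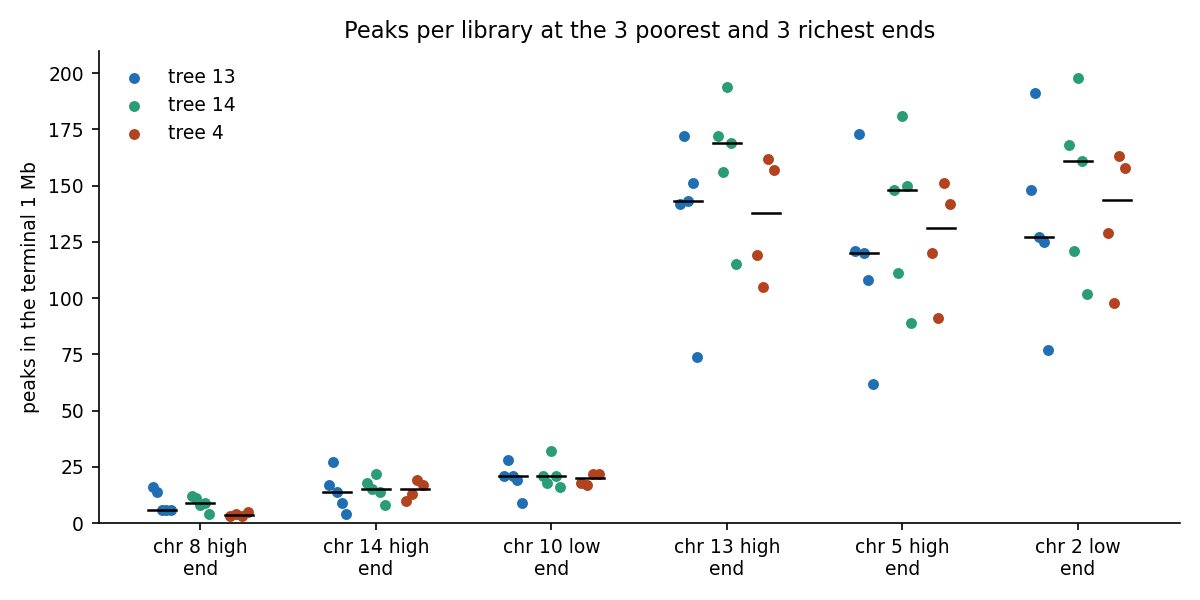
Peaks in the terminal 1 Mb (vertical axis) of each library at the 3 region-poorest ends (left) and the 3 region-richest ends (right). Points are libraries coloured by tree and short bars are medians of a tree. No library has more than 32 peaks at a poor end or fewer than 62 at a rich one.

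At the poorest ends the regions were not spread evenly. All 27 regions at the high end of chromosome 8 lay in the outermost 196 kb, and inward of them came a stretch of 964 kb with no region in any library (chr8:19059881-20023469), which reached past the zone. The low end of chromosome 10 had 42 of its 46 regions in the outermost 270 kb, followed by 678 kb with none (chr10:269690-947844). At the low end of chromosome 9, 7 regions lay within 30.1 kb of position 0, and the next followed after 347 kb. The high end of chromosome 14 differed in having its 42 regions on both sides of the middle of the zone, 20 in the outer 0.5 Mb and 22 in the inner 0.5 Mb. Stretches of 500 kb or more without a region were rare, with 8 among 55179 gaps between neighbouring regions. The median gap after a region was 3.11 kb near the ends, against 3.25 kb in the rest.

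Followed inward, the poor and rich zones were mostly the edges of longer stretches. From the high end of chromosome 8 no 0.5-Mb bin out to 5 Mb held more than 27 regions. From the high end of chromosome 14 the bins between 2 and 3.5 Mb held 12, 0 and 9 regions, and the bin from 4.5 to 5 Mb held 57. At the low end of chromosome 2 every 0.5-Mb bin out to 5 Mb held between 110 and 141 regions. The high end of chromosome 13 behaved differently, with 127 regions in its outermost 0.5 Mb and 37 in the bin from 4.5 to 5 Mb. At the low end of chromosome 9 the outermost 0.5 Mb held 9 regions and the bin from 4 to 4.5 Mb held 111.

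**Figure D3:**
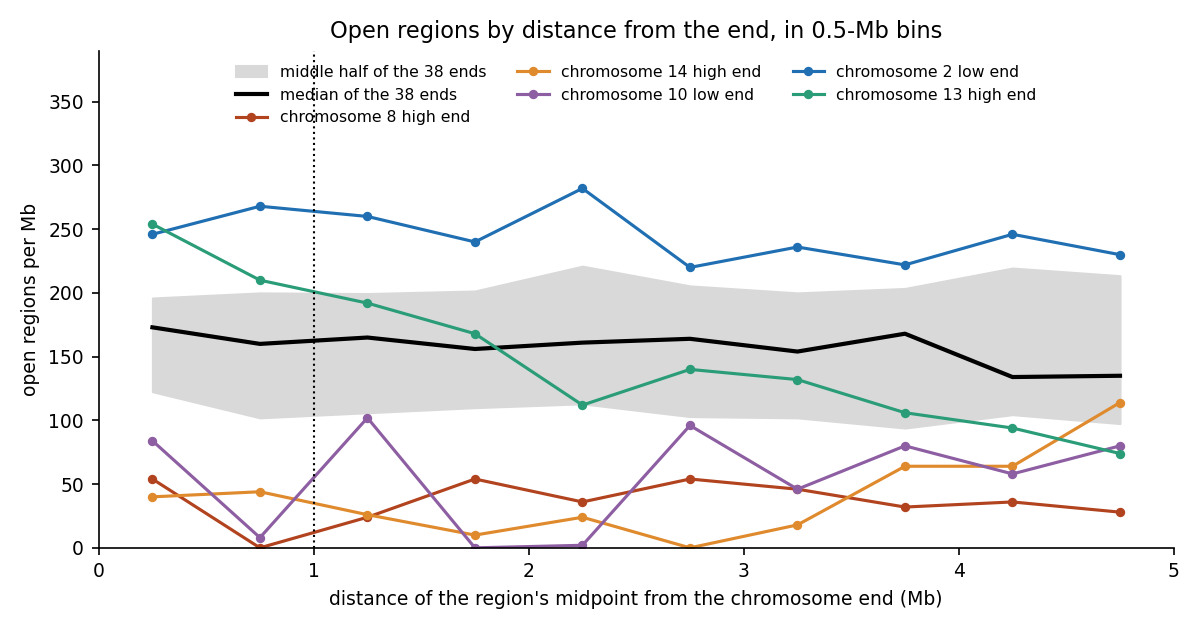
Open regions per Mb (vertical axis) by distance of the region's midpoint from the chromosome end in Mb (horizontal axis), in 0.5-Mb bins out to 5 Mb. The black line is the median of the 38 ends, the grey band their interquartile range, and the dotted line marks 1 Mb. The median stays between 134 and 173 per Mb, the chromosome 2 low end stays above it, and the chromosome 8 and 14 high ends lie below the band in every bin up to 4 Mb.

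The median over the 38 ends was 173 regions per Mb in the outermost 0.5 Mb, 160 per Mb in the next 0.5 Mb and 165 per Mb between 1 and 1.5 Mb. The outermost bin had the highest median of the 10 bins out to 5 Mb, and the lowest was 134 per Mb between 4 and 4.5 Mb. By the mean over ends the highest bin was that from 2 to 2.5 Mb, with 161.9 per Mb, against 159.2 in the outermost bin. The lowest mean of a bin was 149.8 per Mb, so the higher density was not confined to the outermost 1 Mb. Within the zone, 100-kb bins summed over all ends held between 138.4 and 167.9 regions per Mb. The outermost 100 kb held 618 regions whose median width was 266 bp, and 21.4% of them were called in all 14 libraries. In the other 9 bins that share was between 13.9% and 18.9%. Bins are values over all ends with no test. At high ends distance is counted from the outermost peak, so the bins leave out any stretch without peaks beyond it.

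Library by library, peaks per Mb near the ends exceeded those in the rest, each averaged over the 19 chromosomes. The 5 tree 13 libraries had 77.1, 103.5, 71.0, 66.5 and 35.9 peaks per Mb near the ends, against 70.7, 94.0, 63.1, 59.7 and 31.9 in the rest. The tree 14 libraries had 90.5, 73.3, 109.9, 86.2 and 56.9 near the ends, against 80.2, 65.9, 99.5, 77.7 and 53.2 in the rest. The tree 4 libraries had 67.8, 52.1, 87.7 and 84.2 near the ends, against 62.8, 49.8, 79.7 and 76.6 in the rest. Every library lay higher near its ends, while the libraries differed far more among themselves, in step with the length of their lists. The mean log2 ratio of ends over rest within chromosomes was 0.12 ± 0.03 (SD, n = 14), a 1.09-fold higher density (adjusted p = 0.000366 by a two-sided exact permutation test that flips signs over the 14 libraries, Benjamini-Hochberg over 6 tests). The unadjusted p of 0.000122 is the smallest this test can give. It describes agreement among 14 libraries that share a genome, and these came from 2 individuals.

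The direction depended on what the ends were compared with. Against the next 1 Mb inward, which held 6032 regions, density near the ends was lower in all 14 libraries. Peaks per Mb were 75.9 ± 19.9 near the ends and 79.6 ± 20.9 in the next 1 Mb (SD, n = 14 each). The mean log2 ratio was -0.08 (adjusted p = 0.000732, exact permutation test). For peaks with a −log10 q of at least 10 the mean log2 ratio within chromosomes was -0.07, negative in 10 of 14 libraries (adjusted p = 0.0288, exact permutation test). The same peaks pooled over chromosomes gave 0.06, positive in 9 of 14 libraries (adjusted p = 0.0420, exact permutation test). Each library had 202 to 817 such peaks near the ends. Averaged over chromosomes, their density was 11.8 per Mb near the ends and 11.2 in the rest. With end zones of 2 Mb the mean log2 ratio over all peaks was 0.22, a 1.16-fold higher density, and with zones of 0.5 Mb it was 0.15. Without chromosome 13 the ratio over all peaks was 0.06, and without chromosome 9 it was 0.17. On single chromosomes peaks per Mb were higher near the ends in all 14 libraries on 11 chromosomes, and lower in all 14 on chromosomes 3, 8, 9, 10, 14 and 18.

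**Figure D4:**
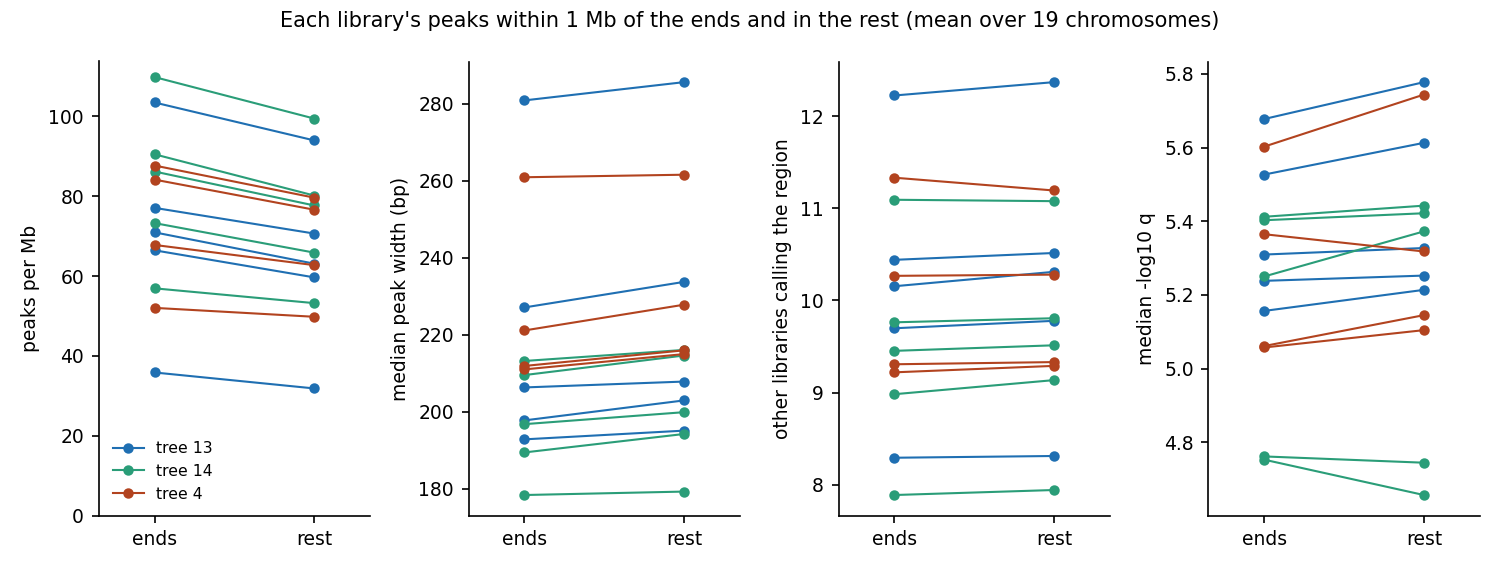
Peaks per Mb, median peak width in bp, the mean number of the other 13 libraries that called the region, and median −log10 q of the peaks of each library (1 line per library, coloured by tree), within 1 Mb of the ends (left of each panel) and in the rest of the chromosomes (right). Only the first vertical axis starts at 0. All 14 lines fall to the right in the first panel and rise in the second, while the lines of the last 2 panels go both ways.

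Peaks near the ends were slightly narrower on average over the chromosomes. The median peak width averaged 214 ± 28 bp near the ends and 218 ± 28 bp in the rest (SD, n = 14 libraries), a difference of -3.75 ± 1.94 bp that was negative in all 14 libraries (adjusted p = 0.000366, two-sided exact permutation test). The largest differences were -6.68 bp in 4.3 and -6.63 bp in 13.1, and the smallest was -0.66 bp in 4.2. Against the next 1 Mb inward the difference was 1.30 bp, and with end zones of 0.5 Mb it was -0.135 bp, and neither passed the test. Merged regions had a median width of 247 bp near the ends, against 253 bp in the rest. By chromosome, this median was lower near the ends on 10 chromosomes and higher on 9. It ran from 209 against 254 bp on chromosome 18 to 264 against 233 bp on chromosome 13. Regions of 1000 bp or more made up 0.914% of members and 0.718% of the rest.

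Peaks near the ends lay in regions called by nearly as many other libraries as peaks elsewhere. Of the other 13 libraries, a mean of 9.86 ± 1.17 called the region of a peak near the ends and 9.92 ± 1.17 called that of a peak in the rest (SD, n = 14). The difference of -0.053 ± 0.076 was negative in 12 of 14 libraries (adjusted p = 0.0420, exact permutation test). Each library's value counts calls of the other 13, so the 14 values depend on one another. The sign flips treat them as separate, so this p is only a rough guide. The median −log10 q of peaks averaged 5.26 ± 0.28 near the ends and 5.30 ± 0.32 in the rest, a difference of -0.040 ± 0.066 that was negative in 11 of 14 libraries (adjusted p = 0.04995, exact permutation test). Both differences are smaller than their spread between libraries, and leaving out 1 library took the adjusted p past 0.05 in 10 of 14 cases for calling libraries and in 12 of 14 for −log10 q.

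Counted over regions, 999 members were called in all 14 libraries and 1503 in a single library. Called in all 14 were 16.9% of members (95% Wilson interval 16.0% to 17.9%, counting error only) and 17.7% of the rest (17.36% to 18.04%). Averaged over the 19 chromosomes with equal weight, these shares were 16.6% near the ends and 17.2% in the rest, and the share was higher near the ends on 6 chromosomes and lower on 13. Single-library regions made up 25.4% of members and 23.8% of the rest. Between these extremes, 2322 members were called in 2 to 9 libraries and 1083 in 10 to 13. The 2 longest lists supplied the most single-library members, with 325 from 14.3 and 248 from 13.2, and the shortest list, 13.5, supplied 3.

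**Figure D5:**
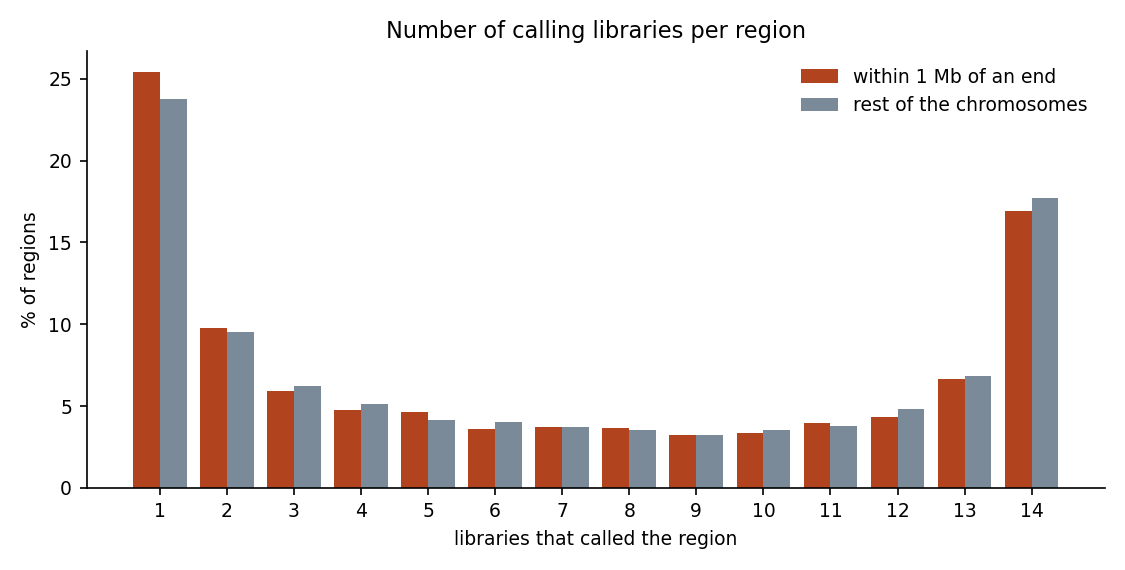
Share of regions (vertical axis, %) by the number of libraries that called them (horizontal axis), within 1 Mb of an end (left bar of each pair) and in the rest of the chromosomes (right bar). Both sets peak at 1 library and at 14 libraries, with 25.4% and 16.9% of the members, against 23.8% and 17.7% of the rest.

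Set beside regions of the rest called in as many libraries, members had these widths and significance. Members called in 1 library had a median width of 121 bp and a median −log10 q of 3.19, against 121 bp and 3.18 in the rest. Members called in all 14 had a median width of 487 bp and a median −log10 q of 8.51, against 483 bp and 8.79 in the rest. These medians are descriptions over regions with no test. A merged region spans all peaks that overlap in it, so its width grows with the number of libraries by construction, and only the members and the rest are compared here.

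The ends differed among themselves in how widely their regions were shared. At the high end of chromosome 13 a region was called in 8.12 libraries on average and 58 of its 232 regions were called in all 14. The low end of chromosome 14 had the highest share called in all 14, at 27.8% (42 of 151 regions), although its density lay below that of the rest of its chromosome. At the high end of chromosome 8 the mean was 3.63 libraries and 1 of 27 regions was called in all 14. Across the 38 ends the number of regions and the mean number of calling libraries went together, with Pearson's r = 0.75 and Spearman's rho = 0.71. These ends share the same 14 libraries and lists, so the values are a description over ends and carry no p.

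The member with the highest score percentile among those called in all 14 libraries was chr13:16178191-16179255, a region of 1064 bp with its outer edge 85.2 kb from the high end of chromosome 13. Its highest −log10 q per library was 36.5, 31.8, 27.5, 27.3 and 38.01 in tree 13, 32.3, 25.9, 35.3, 24.8 and 38.2 in tree 14, and 37.5, 40.9, 40.7 and 36.2 in tree 4. All 14 values lie far above the median peak, and the ranges of the trees overlap. Next were chr5:316872-317302, of 430 bp, with a mean −log10 q of 28.3 ± 4.7 (SD, n = 14), and chr7:743883-744410, of 527 bp, with 28.8 ± 6.1. Both lay at low ends, 317 and 744 kb from position 0.

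The widest members were also called in every library but were less significant. They were chr12:14759210-14761035, of 1825 bp, chr4:22829045-22830680, of 1635 bp, and chr1:49876723-49878273, of 1550 bp, all at high ends. Their mean −log10 q values were 8.88 ± 3.05, 6.23 ± 1.83 and 7.04 ± 1.63 (SD, n = 14 each). Where a peak had to cover at least 50% of the region, 7 libraries called the chromosome 12 region and 7 the chromosome 4 region.

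The outermost member at the low ends lay between 1.23 and 50.8 kb from position 0, with a median of 11.8 kb over the 19 chromosomes. The nearest was chr15:1234-1648, called in 6 libraries (13.1, 13.2, 13.4, 14.1, 14.2 and 4.5). Next were chr5:4951-5053, called in 14.3 alone, and chr2:5097-5454, called in 5 libraries. The farthest were chr3:50835-50945, called in 4.5 alone, chr11:50747-50910, called in 4 libraries, and chr19:42158-42261, called in 13.2 and 14.3. No outermost region among these 6 was called in more than 6 libraries. At the high ends the outermost region ends at the chromosome's length by definition, and of these 19 regions 2 were called in all 14 libraries and 4 in a single library.

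Single-library members of the highest score percentile were chr15:14276864-14276976 in 13.4, chr4:561752-561846 in 14.2 and chr3:22937645-22937773 in 13.1. They were 112, 94 and 128 bp wide, with −log10 q values of 7.76, 6.71 and 7.90. At the limit of 1 Mb the last member inside was chr13:999725-1000131, of 406 bp and called in 7 libraries, and the first outside was chr12:13858659-13859102, of 443 bp and called in 12.

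The trees differed little in the share of their peaks near the ends. That share was 10.4%, 10.5%, 10.7%, 10.6% and 10.7% in tree 13, 10.8%, 10.6%, 10.5%, 10.6% and 10.2% in tree 14, and 10.3%, 10.01%, 10.5% and 10.5% in tree 4. The 2 lowest shares were in 4.3 and 14.5, and all 3 trees overlap. Tree 13 averaged 10.59 ± 0.11% and tree 14 averaged 10.54 ± 0.19% (SD, n = 5 each), a difference of 0.050 percentage points (p = 0.667, two-sided exact permutation test over libraries). Trees 13 and 14 together averaged 10.57 ± 0.15% (n = 10) and tree 4 averaged 10.32 ± 0.23% (n = 4), a difference of 0.246 percentage points (p = 0.0280 and adjusted p = 0.0420, exact permutation test). The libraries permuted are branches of only 2 individuals, so this p does not speak to individuals in general. Without 4.3 the difference was 0.141 points (adjusted p = 0.189, exact permutation test), and with lists of equal length it was 0.176 points (adjusted p = 0.330, exact permutation test).

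No single region near the ends passed adjustment between the trees, and the test could hardly have let one pass. For tree 13 against tree 14, 27 of the 948 members that could be tested had an unadjusted p under 0.05 when their calls were compared by Fisher's exact test, which is 2.85% of them, against 3.04% of all 9042 regions tested. Of these, 26 were called more often in tree 14 (2.83% of all regions tested went that way) and 1 more often in tree 13 (0.21% of all). The tree 14 libraries had a mean of 3168 peaks near the ends, and the tree 13 libraries 2690. For trees 13 and 14 against tree 4, 17 of 1958 members passed, or 0.868%, against 0.994% of all 18615 regions tested, with 8 called more often in trees 13 and 14 (0.435% of all) and 9 more often in tree 4 (0.559% of all). No member passed an adjusted p under 0.05 in either comparison, nor did any region of the whole table (0%). The smallest p that Fisher's exact test can give is 0.00794 for 5 against 5 libraries and 0.000999 for 10 against 4. After adjustment over 9042 and 18615 regions, these values pass only if many regions reach them. Only 0.144% and 0.0161% of the regions did, so the test could not decide whether single regions separate the trees.

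Only 1 member was called in every library of tree 14 and in none of tree 13, and none was called the other way round, while 0.144% of all regions tested were all-or-none in this comparison. It was chr16:973895-974184, 289 bp wide and 974 kb from position 0. Its −log10 q was 2.44, 3.13, 3.85, 4.98 and 3.14 in the tree 14 libraries, and it was not called in the 5 tree 13 libraries. In tree 4 it was called in 4.3, 4.4 and 4.5, with values of 3.26, 2.60 and 2.66. The 8 values run between 2.44 and 4.98, where the lowest −log10 q of a list was at most 2.05. With the most significant 50% of each list no library called it. Between trees 13 and 14 and tree 4, no member was all-or-none, against 0.0161% of all regions tested.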

How the data were processed

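The authors deposited ATAC-seq peak lists of 15 leaf libraries, 1 list per library, and 14 were used as they stand. The submitters' processing notes name Trimmomatic 0.36, Bowtie 1.1.1 and MACS2 2.1.2. ATAC-seq is not among the assays in the study's methods, and neither the genome build nor a shift of the reads is given in the sources used here. Each deposited list gives peak positions, −log10 p-values and −log10 q-values and a score. The authors' score was used only to rank peaks within a list. Read depth is unknown, so no counting interval is given for peaks, and the base from which starts count, 0 or 1, is not stated. The library titled 1.1 was used nowhere, because its tree could not be settled from its labels. Peaks of the same list never overlapped or touched.

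Peaks of the other 14 lists were merged, and density, median width, median −log10 q and the number of other calling libraries were taken per library and chromosome and averaged over 19 chromosomes. A zone with no peak was given 0.5 peaks before the log2 ratio. Ends were compared with the rest by exact sign flips over libraries, and trees by exact permutation of libraries, adjusted by Benjamini-Hochberg over these 6 tests. Fisher's exact test was run on all regions and adjusted over those that could reach an unadjusted p under 0.05. Fisher's exact test was tried on permuted calls with differences put in. The sign flips were tried on simulated libraries whose peaks were placed independently of one another. The libraries used here share a genome, so that simulation does not cover their dependence. The permutation test between trees was not simulated.

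Regions named are the 3 of highest score percentile in all 14 libraries, the 3 widest, the 3 nearest and 3 farthest outermost ones, all-or-none ones and the 3 highest single-library ones. Ends named are the 3 densest, the 3 poorest and all below the rest of their chromosome. The members, lists and tests were chosen with earlier results of these data known. The gene table at hand was of another build, because 9264 regions lay within 0.5 kb of a gene edge in it and 9194 did so after a shift of 100 kb, so it was not used. Alternatives were end zones of 0.5 and 2 Mb, the next 1 Mb inward, pooled chromosomes, any base in the zone, lists cut to equal length, to their most significant 50% or to a −log10 q of 10 or more, peaks of at least 159 bp, a 50% overlap, means, the set without 13.4 and 14.1 (the series text counts 4 branches a side), each library left out and a replicate block. Leaving out each chromosome, pooling the peaks of −log10 q of at least 10 and comparing contrasts and single ends between trees were added after seeing the data. Tools were scipy 1.17.1, pandas 2.3.3 and numpy 2.4.6 under Python 3.11.15, with matplotlib 3.10.9 for figures.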

Additional observations from a re-analysis of the deposited data

Results flagged for a closer look

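The share of peaks near chromosome ends was 0.246 percentage points higher in trees 13 and 14 than in tree 4, and the test of that difference passed after adjustment (adjusted p = 0.0420, exact permutation test, shares of 10.57% and 10.32%). It no longer passed in 11 of the 14 cases in which 1 library was left out, nor at equal list length (adjusted p = 0.330, exact permutation test). The libraries permuted are branches of only 2 individuals. The log2 density ratio of ends over rest, compared between the same libraries, was 0.13 in trees 13 and 14 and 0.09 in tree 4, with p = 0.0350 and an adjusted p of 0.204 over 8 such exact permutation tests. Among 15 groups of libraries and measures examined for a single library far from the others of its tree, none was found, where chance alone gives about 1 in 20.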

How the results depend on the processing

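The 6 tests of single values were repeated under 145 alternatives, of which 90 kept direction and side of the threshold, 7 reversed and 48 lost significance. The higher density near the ends reversed against the next 1 Mb inward (log2 ratio -0.0838) and for peaks with −log10 q values of 10 or more (-0.0736), but not for those peaks pooled over chromosomes (0.0578), and in the other alternatives it stayed positive and past the threshold. The narrower width became 1.30 bp against the next 1 Mb inward and -0.135 bp with zones of 0.5 Mb. Calling libraries lost significance with zones of 0.5 Mb (-0.0227) and 2 Mb (-0.0206) and against the next 1 Mb inward (-0.0410). The −log10 q difference lost it with zones of 0.5 Mb (-0.00674) and 2 Mb (-0.0298), against the next 1 Mb inward (-0.0164) and without both 13.4 and 14.1 (-0.0352), and became 0.0164 with −log10 q values of 10 or more. The tree 13 minus tree 14 share difference, never significant, became -0.0277 points in the top 50% of each list, -0.524 with −log10 q values of 10 or more and -0.0281 without tree 14 branch 5. The difference of trees 13 and 14 from tree 4 lost significance with zones of 0.5 Mb (0.0953) and 2 Mb (0.300), in the top 50% of each list (0.255), with −log10 q values of 10 or more (0.429), at equal list length (0.176), with a minimum peak width (0.232) and without both 13.4 and 14.1 (0.215). The difference in the share of regions called in every library was -0.627 points and moved to -1.60 points at equal list length. The cause of these changes was not tested.

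With 1 library left out at a time, the results ranged as follows. The log2 density ratio was 0.115 to 0.124, the width difference -3.98 to -3.52 bp, calling libraries -0.0650 to -0.0391, −log10 q -0.0503 to -0.0321, the tree 13 minus tree 14 share -0.0281 to 0.105 points, trees 13 and 14 minus tree 4 0.141 to 0.308 points (significance lost in 11 of 14 cases), and the share called in every library -1.20 to -0.428 points. Members with an unadjusted p under 0.05 by Fisher's exact test numbered 27 to 112 for tree 13 against tree 14. For trees 13 and 14 against tree 4 they numbered 8 to 42. The group sizes, the merged regions and the set of regions tested can all change with a library left out. Which of these moved the counts was not tested. The same counts over all regions tested were not taken, so the ranges are not particular to members.

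For tree 13 against tree 14 the 27 such members became 0 with −log10 q values of 10 or more, 17 with a minimum peak width and 6 without both 13.4 and 14.1. For trees 13 and 14 against tree 4 the 17 became 10 in the top 50% of each list, 5 with −log10 q values of 10 or more, 26 with a minimum peak width, 28 with a 50% overlap and 6 without both 13.4 and 14.1. None passed adjustment in any of these. Branch numbers are shared between trees 13 and 14, but deviations of same-numbered libraries over the members correlated between -0.0673 and 0.137, so they were not treated as pairs. With the replicate block the share difference was 0.0496 points and 0 members passed, the smallest p of that sign test being 0.0625. Without each chromosome in turn, density and width kept their direction with an unadjusted p under 0.05, and the differences in calling libraries and −log10 q had an unadjusted p above 0.05 in 6 and 11 of 19 cases. Of 80 calling counts of the 16 named regions under other filters, 38 moved by over 1.5 times. The number of reads behind each list limits what could be called and is not known.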

Other observations

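The trees were also compared at single ends. Of 38 ends compared by an exact permutation test of the share of peaks, tree 13 differed from tree 14 at 2 ends and trees 13 and 14 from tree 4 at 6 ends at an unadjusted p under 0.05, and none passed adjustment over the 38 ends (smallest adjusted p 0.603 and 0.171). One of the 6 was the high end of chromosome 8, which held 0.0338% of the chromosomal peaks of trees 13 and 14 and 0.0145% of those of tree 4 (p = 0.0120, adjusted p = 0.171, exact permutation test). The smallest p this exact permutation test can give for tree 13 against tree 14 is 0.00794, so a difference at a single end could not pass over 38 ends. These comparisons were added after the data were seen.

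Low ends held 149 ± 59 regions per Mb and high ends 162 ± 58 (SD over 19 ends each). The 7 ends with fewer than 100 regions included the low ends of chromosomes 3, 9, 10, 12 and 19 and the high ends of chromosomes 8 and 14. Together they held 420 of the 5907 members.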
